A study of Mus musculus with 18 samples.

Results

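DEN-induced tumours of Ftcd knockout mice were compared with liver of untreated knockout mice. Ftcd encodes a liver enzyme that ends histidine breakdown by passing the formimino group to tetrahydrofolate, a carrier of one-carbon units. All mice of the comparison carried a liver-specific deletion of Ftcd (LKO), on a C57BL/6 background by the series title. The promoter that drove the deletion was not given in the sources used here. The tumour group (3 libraries) came from LKO mice injected intraperitoneally with diethylnitrosamine (DEN), which becomes a DNA-alkylating carcinogen through the P450 enzymes of hepatocytes. They received 20 mg/kg at postnatal day 14 and were killed 12 months after the injection. Tumours over 0.5 mm were counted as visible at dissection. The untreated group (3 libraries) was whole liver of LKO mice aged 12 months. Nontumour liver of DEN-treated LKO mice (3 libraries) is given beside these values, and the 9 remaining of the 18 libraries are labelled wild type (WT), from DEN-treated or untreated mice, and served to estimate the spread. No label says whether the libraries of a group are separate animals, so p-values measure the spread between these libraries, which may be technical. The comparison covers every gene that reached 1 TPM in 3 or more of its 6 libraries, 11019 of the 58126 genes in the deposited table. TPM is a length-corrected share of transcripts with the same total in every library, so the read depth behind a value is unknown.

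As background, a DEN tumour in mouse liver grows from a hepatocyte that received the carcinogen in infancy, when hepatocytes still divide. Adult hepatocytes rarely divide, differ in their enzymes between the portal and the central end of the lobule, and in rodents differ strongly between the sexes. The sex difference follows the pulsed or continuous pattern of growth hormone secretion, which acts through the transcription factor STAT5. In male mice it maintains abundant transcripts of the major urinary proteins (Mup genes), and in females a set of cytochrome P450 enzymes that includes Cyp2a4.

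Ftcd was low in all 6 libraries, at 0.1, 0.15 and 1.75 TPM in the tumours and 3.16, 1.75 and 2.29 TPM in untreated LKO liver. The other 3 LKO libraries also lay at 0.34 to 1.01 TPM, while Ftcd reached 106 TPM in libraries labelled WT. Another 3 of the libraries labelled WT were at 1.77 to 2.5 TPM, like LKO. They enter only through the estimated spread, and without them 105 genes were called, 90 of them among the 111 described below. The tumour and untreated values touched at 1.75 TPM and did not differ by the test (log2 fold change of TPM + 1 -1.15 ± 1.29 SE, limma adjusted p = 0.816). Hepatocyte transcripts were abundant in both groups: albumin (Alb) was at 6758, 39150 and 16500 TPM in the tumours and at 8271, 7025 and 19140 TPM in untreated liver. Of 19 tested hepatocyte-defining genes 0 passed. The sexes were not balanced. All 3 untreated libraries and tumours 2 and 3 were XY by Y-linked transcripts, and tumour 1 was XX, with Xist at 35.4 TPM and a Y-linked sum of 0.1 TPM. Mitochondrially encoded transcripts took 10.5 to 31.4% of a tumour library and 17.9 to 30.9% of an untreated one (exact permutation test, 2-sided p = 0.6).

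Against untreated LKO liver, 64 genes were higher and 47 lower in the tumours by limma with Benjamini-Hochberg adjustment over all 11019 genes, a background of 1.01% called (0.581% higher and 0.427% lower). In all 111 the 3 tumour and the 3 untreated libraries did not overlap, against 7.6% of tested genes with the tumours entirely above and 1.93% entirely below. The falls were dominated by Mup genes and other male-biased liver genes. The rises held female-biased enzymes, cell division genes, detoxification and stress genes, and genes of macrophages and related myeloid cells. Before adjustment 900 genes had p under 0.05 in the higher direction and 187 in the lower. The median log2 fold change over all tested genes was 0.35, so list medians below are also given relative to it. With 1.01% of genes called, a count of 0 in a short gene list is near the background and says little about that list.

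The number of calls depended on the libraries in the fit. Under 20 alternatives 0 of the 111 genes changed sign. Their tumour and untreated libraries did not overlap, so leaving a library out could not have turned a sign. The 6 compared libraries fitted alone called 35 genes (30 of them among the 111), and the 9 LKO libraries alone called 8, all among the 111. Leaving out tumour 1, the XX library, raised the count to 512 genes (4.65%; 445 higher, 4.04%, and 67 lower, 0.608%), with 109 of the 111 among them. Leaving out tumour 3 lowered it to 21, and leaving out tumour 2, untreated 1, untreated 2 or untreated 3 left 53, 33, 22 or 42. A gene passed in all 6 of these omissions in 16 of the 111 cases, and 7 genes passed in every alternative that tested them: Cyp2a4, Rad51b, Mup7, Mup12, the pseudogenes Mup-ps11 and Mup-ps5, and the predicted gene Gm31121.

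**Figure D1:**
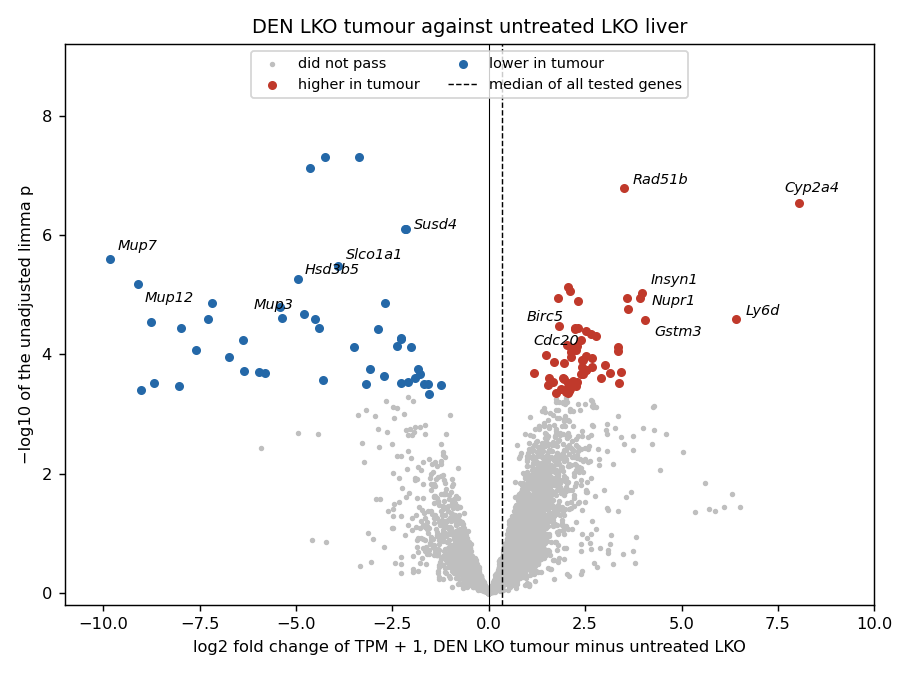
Each point is 1 of the 11019 tested genes, with the log2 fold change of TPM + 1 (tumour minus untreated LKO) on the horizontal axis and -log10 of the unadjusted limma p on the vertical axis. The 47 genes that fell (blue) reach -9.82 for Mup7, the 64 that rose (red) reach 8.05 for Cyp2a4, and the dashed line is the median of all genes at 0.35.

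The Mup genes showed the largest loss in the comparison. They encode small lipocalins that hepatocytes secrete, that the kidney passes into urine and that bind pheromones, and they lie in a cluster on chromosome 4. Together the Mup genes took 12.5, 8.91 and 13.2% of all TPM in untreated LKO liver and 0.516, 1.64 and 0.735% in the tumours. The shares did not overlap (exact permutation test, 2-sided p = 0.1, the smallest that 3 against 3 libraries allow). In nontumour DEN liver the share ran from 0.136 to 3.79%, a range that reached below and above that of the tumours. The family was singled out after its values were seen. Of 19 tested members 15 fell, with log2 fold changes from -9.82 to -4.79, and the median over the 19 lay 7.54 below that of all genes. Of 13 tested Mup pseudogenes 6 fell. Those under 1 TPM in all tumours, such as Mup-ps5 and Mup-ps11, could pass the filter on low values only through untreated liver. Over the 15 Mup genes that fell, values ran from 0 to 943 TPM in the tumours and from 1030 to 16350 TPM in untreated liver.

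Mup7, the member with the largest fall, was at 24.6, 20.0 and 3.26 TPM in the tumours and at 12730, 8963 and 14980 TPM in untreated LKO liver (log2 fold change -9.82 ± 1.46 SE, limma adjusted p = 0.00348). It is on the minus strand at chr4:60066469-60070475 (mm10). Nontumour DEN liver was at 107, 1541 and 7.99 TPM. Its library 3 lay within the tumour range, and libraries 1 and 2 lay between the tumour and untreated values. All 3 tumours were low, the XX library among them no lower than the other pair. Without the XX tumour the fall was -10.3 ± 1.65 SE (adjusted p = 0.00221), between XY libraries only. Mup12 reached 0 in tumour 3 and was at 6.65 and 1.5 TPM in tumours 1 and 2, against 1523, 1030 and 2044 TPM in untreated liver (log2 fold change -9.11 ± 1.46 SE, adjusted p = 0.00661). Mup3 kept more of its transcript, at 323, 271 and 149 TPM in the tumours against 6340, 3851 and 11370 TPM (log2 fold change -4.79 ± 0.84 SE, adjusted p = 0.0103).

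The other members named by their large falls were Mup15, Mup1, Mup17, Mup19, Mup16, Mup8, Mup13, Mup14, Mup10 and Mup2, with log2 fold changes from -9.03 to -6.37. In all 10 the untreated libraries lay at or above 1777 TPM and the tumours at or below 651 TPM. Tumour 1 held the highest of the 3 tumour values in each, for example 651 TPM for Mup17 against 9.06 and 1.01 TPM in tumours 2 and 3. Mup15 and Mup1 had the same value in tumour 2, 5.07 TPM, and in tumour 3, 1.08 TPM. The members are near-identical in sequence, so how reads were divided among them is uncertain, and the summed share is the firmer measure. The calls of Mup7 and Mup12 held in all 19 alternatives that tested them, while those of Mup15, Mup17 and Mup19 were lost in 9 to 11 of 19, among them the omission of tumour 2, tumour 3 or any untreated library.

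One member departed from the rest. Mup20, also called darcin, the male pheromone of mouse urine, was at 140, 15460 and 6862 TPM in the tumours and at 1799, 3299 and 4548 TPM in untreated LKO liver. The XY tumours were both above every untreated library and the XX tumour below, and the difference did not pass (log2 fold change -0.28 ± 1.60 SE, adjusted p = 0.965). Mup20 was thus most of the 16370 TPM that Mup genes kept in tumour 2 and of the 7353 TPM in tumour 3. Mup21, Mup18 and Mup9 did not pass either, although their tumour libraries all lay below the untreated ones. The values of Mup9 were 166, 196 and 130 TPM in the tumours and 7260, 3416 and 5024 TPM in untreated liver.

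The windows before the annotated starts of Mup7 and Mup3 are shown because these members span the range of the falls in the family. Each line gives the 250 bases before the start in RefSeq (GRCm38.p6, minus strand, chr4:60070476-60070725 for Mup7 and chr4:62087318-62087567 for Mup3), 5′ to 3′, with capitals on runs of 12 or more bases that both windows hold.
Mup7: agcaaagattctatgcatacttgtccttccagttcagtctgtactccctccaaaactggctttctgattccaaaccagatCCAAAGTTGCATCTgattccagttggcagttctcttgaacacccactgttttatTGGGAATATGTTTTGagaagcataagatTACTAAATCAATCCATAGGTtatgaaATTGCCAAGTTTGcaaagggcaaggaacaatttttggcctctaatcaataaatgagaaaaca
Mup3: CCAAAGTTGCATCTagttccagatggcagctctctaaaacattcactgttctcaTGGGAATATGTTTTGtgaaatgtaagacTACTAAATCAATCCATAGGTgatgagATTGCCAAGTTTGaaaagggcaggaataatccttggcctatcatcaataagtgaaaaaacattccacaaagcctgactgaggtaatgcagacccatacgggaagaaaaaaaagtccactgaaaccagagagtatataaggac
The longest shared run, TACTAAATCAATCCATAGGT, was found in 12 of the 14 Mup windows in the table and in 0 of the windows outside the family, of 32851 in all. ATTGCCAAGTTTG was also in 12 of 14, TGGGAATATGTTTTG in 9 and CCAAAGTTGCATCT in 3, each in 0 windows outside the family. The starts are annotated at different distances from these runs, which therefore sit nearer to the start in Mup7 than in Mup3.

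**Figure D2:**
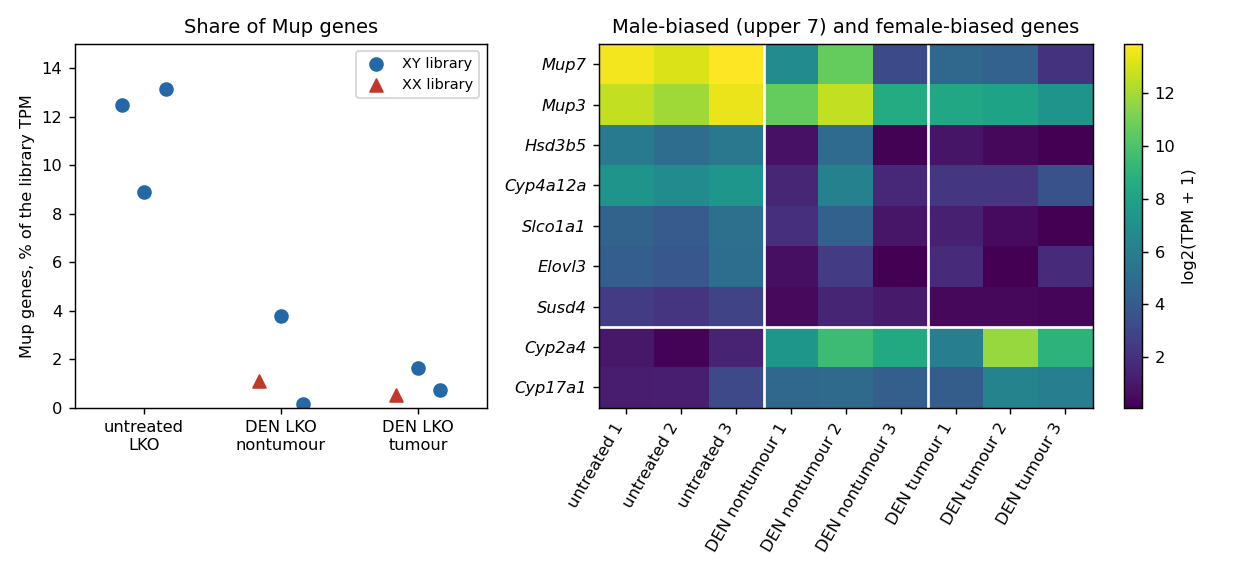
On the left, the share of all TPM from Mup genes in each LKO library, with XY libraries as blue circles and XX libraries as red triangles. Untreated libraries lie between 8.91 and 13.2% and tumours between 0.516 and 1.64%. On the right, log2(TPM + 1) of 7 male-biased and 2 female-biased genes in each library, in which Cyp2a4 and Cyp17a1 are low in the untreated columns and high in the tumour columns.

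Some male-biased genes outside the Mup cluster fell as well. Of 28 tested genes of a list of male-biased liver genes 9 fell and 0 rose: Mup7, Mup12, Mup1 and Mup3, and outside the cluster Hsd3b5, Cyp4a12a, Slco1a1, Elovl3 and Susd4. Over all 28, Mup members included, the median log2 fold change was -2.32, or 2.67 below the median of all genes. In 19 of 28 all tumours lay below all untreated libraries, and 0 of 28 had a positive change. Members under 1 TPM in all tumours could pass the filter only through untreated liver, as Hsd3b5 and Susd4 did. Their order followed from the filter, and the counts and median describe expressed members. Between XY libraries alone 10 of 28 fell, Ces3b being the tenth, against 0.608% of all tested genes. The count over the whole list, Mup members included, was 6 to 10 when each library was left out in turn. It was 7 in the 6 libraries alone and 2 in the 9 LKO libraries alone.

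Hsd3b5, a male-specific steroid dehydrogenase of mouse liver, was at 0.85, 0.32 and 0.1 TPM in the tumours and at 51.5, 30.8 and 47.5 TPM in untreated LKO liver (log2 fold change -4.96 ± 0.78 SE, limma adjusted p = 0.00612). Slco1a1, a transporter that takes organic anions and bile acids into hepatocytes, was at 1.5, 0.41 and 0.1 TPM against 21.1, 15.3 and 35.1 TPM (log2 fold change -3.90 ± 0.59 SE, adjusted p = 0.00409). For both genes every tumour lay far below every untreated library, and nontumour library 2 alone among the DEN LKO libraries stayed near the untreated range, at 29.4 TPM for Hsd3b5 and 19.6 TPM for Slco1a1. Cyp4a12a, an arachidonic acid hydroxylase, was at 3.8, 3.88 and 10.7 TPM in the tumours and at 148, 106 and 161 TPM in untreated liver (log2 fold change -4.40 ± 0.81 SE, adjusted p = 0.0117). Susd4, which encodes a membrane regulator of complement, lay at 0.27 to 0.31 TPM in the tumours and at 4.76, 3.61 and 6.63 TPM in untreated liver (log2 fold change -2.18 ± 0.30 SE, adjusted p = 0.00126). Elovl3, an elongase of long fatty acids, was at 2.25, 0.06 and 2.47 TPM against 17.4, 13.2 and 32.8 TPM (log2 fold change -3.18 ± 0.72 SE, adjusted p = 0.0358). The calls of Hsd3b5 and Slco1a1 were lost only in the fit of the 9 LKO libraries, and that of Cyp4a12a also without tumour 2 or any untreated library (adjusted p up to 0.124). Susd4 lost its call in the fits of the 6 compared or the 9 LKO libraries alone (adjusted p up to 0.063), and Elovl3 in 9 of 20 alternatives.

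Of 30 listed female-biased genes 13 passed the filter on low values, and of these 2 rose and 0 fell. Members low in untreated liver could pass the filter only through the tumours, so the count and the list median describe expressed members. Cyp2a4, a testosterone hydroxylase of female mouse liver, had the largest rise of all genes. It was at 0.93, 0.17 and 1.66 TPM in untreated LKO liver and at 61.3, 3428 and 519 TPM in the tumours (log2 fold change 8.05 ± 1.02 SE, limma adjusted p = 0.000651). The lowest tumour value was that of the XX library, and without it the change was 9.52 ± 0.85 SE (adjusted p = 3.2e-05). Nontumour DEN liver was also high, at 168, 743 and 346 TPM, as were untreated WT libraries, all of them XX, at 517 to 992 TPM. Cyp2a4 shares most of its sequence with Cyp2a5, so reads may have been divided between them. Cyp2a5 did not pass, at 889, 2207 and 1712 TPM in the tumours and 666, 399 and 213 TPM in untreated liver (adjusted p = 0.186), so the pair summed was also higher in each tumour than in any untreated library.

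Cyp17a1, which in steroid-making tissue hydroxylates and cleaves progestins, was at 16.9, 75.5 and 61.1 TPM in the tumours and at 1.31, 1.34 and 7.63 TPM in untreated LKO liver (log2 fold change 3.61 ± 0.63 SE, limma adjusted p = 0.00888). The groups did not overlap, and the call was lost without tumour 3, untreated 1 or untreated 2 (adjusted p up to 0.0953 over 20 alternatives). The other 11 female-biased genes did not pass. Cyp2c40 was at 160, 8.12 and 42.9 TPM in the tumours against 23.7, 28.1 and 19.3 TPM, highest in the XX tumour. The median log2 fold change of the list was 1.18, or 0.82 above that of all genes. In the growth hormone and STAT5 list 0 of 13 tested genes passed. The STAT5 targets Socs2, at 21.6, 19.9 and 5.6 TPM in the tumours against 0.85, 3.26 and 2.53 TPM, and Cish, at 2.95, 9.4 and 8.94 TPM against 0.78, 0.23 and 1.89 TPM, lay above untreated liver in every tumour without passing (adjusted p = 0.147 and 0.18). Cish passed between XY libraries alone (adjusted p = 0.0499), as did Igfbp3.

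Beside Cyp2a4 and Cyp17a1, the named genes with the largest rises were Ly6d, Gstm3, Insyn1, Nupr1, Lpl, Rad51b, Lgals3, Slc39a4, Fgf21 and Mgst3. Ly6d, a membrane-anchored surface antigen best known from early B cells and stratified epithelium, was at 86.3, 161 and 1377 TPM in the tumours and at 0.2, 1.68 and 8.59 TPM in untreated LKO liver (log2 fold change 6.42 ± 1.15 SE, limma adjusted p = 0.0105). Tumour 3 was the highest and no tumour lay near the untreated range. Ly6d is also one of 27 oncofetal and liver tumour markers listed, of which 11 were tested and Ly6d alone passed. Its call was lost without tumour 3, untreated 1 or untreated 2 (adjusted p up to 0.0704 over 20 alternatives).

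Rad51b, which acts in the repair of DNA breaks by homologous recombination, had the smallest adjusted p among the genes that rose. It was at 10.7, 32.4 and 31.1 TPM in the tumours and at 0.94, 0.86 and 1.42 TPM in untreated LKO liver (log2 fold change 3.50 ± 0.43 SE, limma adjusted p = 0.000448). Every untreated LKO library lay below nontumour DEN liver, at 6.04, 9.96 and 14.0 TPM, and below untreated WT liver, at 6.57 to 11.9 TPM. Tumours 2 and 3 lay above all of these values, and tumour 1 lay within their range. The untreated WT libraries were XX and the untreated LKO libraries XY. Of the 12 tested genes of a DNA repair list, which does not hold Rad51b, 0 passed, and their median lay 0.09 below that of all genes.

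Insyn1 encodes a protein of inhibitory synapses. It was at 4.28, 32.2 and 33.9 TPM in the tumours and at 0.13, 0.13 and 0.25 TPM in untreated LKO liver (log2 fold change 3.97 ± 0.65 SE, limma adjusted p = 0.00747). In nontumour DEN liver it was at 0.08, 6.14 and 0.48 TPM, so that tumour 1 lay below 1 nontumour library. Against nontumour liver the difference was 3.02 ± 0.65 SE, with an unadjusted p of 0.000207 that did not pass adjustment (adjusted p = 0.749).

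Slc39a4, the zinc importer ZIP4, was at 17.7, 49.6 and 198 TPM in the tumours and at 2.52, 5.8 and 6.13 TPM in untreated LKO liver (log2 fold change 3.37 ± 0.76 SE, limma adjusted p = 0.0358). Its call was lost without tumour 2, tumour 3 or any untreated library (adjusted p up to 0.204). Lpl, the lipase that frees fatty acids from circulating triglyceride and is scarce in normal adult liver, was at 8.98, 53.7 and 43.3 TPM against 1.68, 2.07 and 0.65 TPM (log2 fold change 3.60 ± 0.60 SE, adjusted p = 0.00751). The calls of Lpl and Insyn1 were lost without tumour 3 and in the fit of the 9 LKO libraries alone, and that of Lpl also in the 6 compared libraries alone (adjusted p up to 0.073). Of 20 tested genes of lipid droplets and PPARg, the nuclear receptor of fat storage, Lpl alone passed. Pparg itself was at 4.9, 3.26 and 28.0 TPM in the tumours and 3.76, 1.39 and 8.34 TPM in untreated liver. The lipid droplet genes Cidea and Cidec varied widely within untreated liver, from 1.23 to 81.2 TPM and from 5.07 to 67.3 TPM, with untreated 3 the highest in both.

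**Figure D3:**
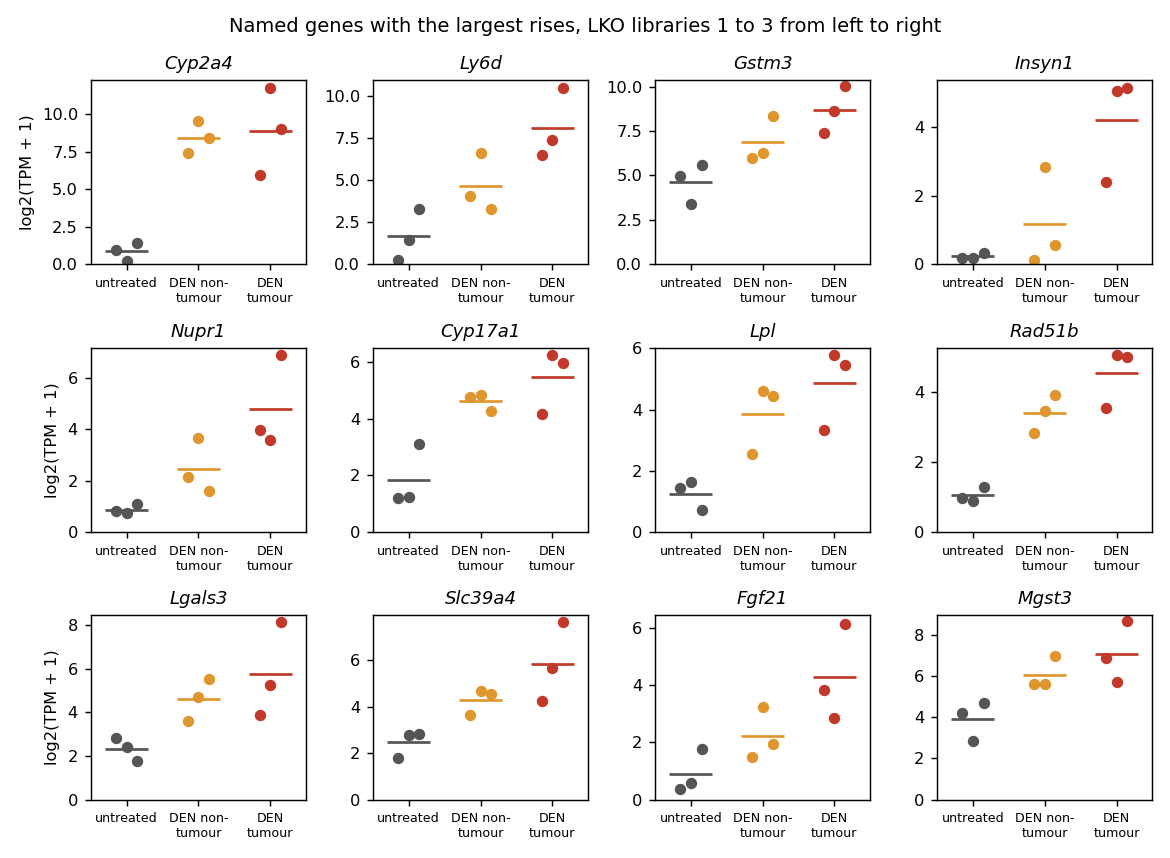
log2(TPM + 1) of the 12 named genes with the largest rises in untreated LKO liver, DEN LKO nontumour liver and DEN LKO tumour, 3 libraries each with the mean as a line. In every panel the 3 tumour points lie above the 3 untreated points.

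Several cell division genes were higher in the tumours. Of 34 listed genes 15 passed the filter on low values, and of these 5 rose and 0 fell: Birc5, Cdc20, Ccnb2, Cdkn3 and Top2a. A gene at low level in untreated liver could pass that filter only through the tumours, so the share is a description of expressed members. Birc5, survivin, was at 3.34, 4.23 and 11.8 TPM in the tumours and at 0.29, 0.3 and 0.43 TPM in untreated LKO liver (log2 fold change 2.31 ± 0.42 SE, limma adjusted p = 0.0117). Cdc20, an activator of the ubiquitin ligase that starts anaphase, was at 5.06, 2.82 and 22.6 TPM against 0.17, 0.3 and 0.42 TPM (log2 fold change 2.66 ± 0.50 SE, adjusted p = 0.0134). Ccnb2, a mitotic cyclin, was at 1.59, 3.14 and 10.8 TPM against 0.16, 0.11 and 0.19 TPM (log2 fold change 2.12 ± 0.42 SE, adjusted p = 0.0184). Tumour 3 was the highest in each gene, and every tumour exceeded every untreated library.

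Cdkn3, a phosphatase of cyclin-dependent kinases, was at 2.64, 2.66 and 24.6 TPM in the tumours against 0.26, 0.11 and 0.31 TPM (log2 fold change 2.51 ± 0.54 SE, limma adjusted p = 0.0291). Top2a, the topoisomerase of dividing cells, was at 1.59, 3.02 and 14.2 TPM against 0.13, 0.08 and 0.19 TPM (log2 fold change 2.26 ± 0.51 SE, adjusted p = 0.0374). Levels in tumours 1 and 2 were thus a few TPM at most. Mki67, the gene of the Ki-67 antigen, was removed by the filter, at 0.09, 0.63 and 2.4 TPM in the tumours and 0.02 to 0.06 TPM in untreated liver. Mcm3, a subunit of the replicative helicase, overlapped between the groups and did not pass. It was at 1.65, 5.03 and 38.4 TPM in the tumours and 1.59, 1.11 and 3.89 TPM in untreated liver (adjusted p = 0.509). Ube2c and Nek2, mitotic genes outside the list that were chosen after their values were seen, also rose, with log2 fold changes of 2.77 and 1.96. The count of 5 in the list became 6 between XY libraries alone, 2 without untreated 3 or without a filter on low values, 3 without the low-Ftcd libraries labelled WT, and 0 without tumour 3, untreated 1 or untreated 2 and in the fits of the 6 compared or the 9 LKO libraries alone.

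Promoter windows of cell division genes are shown for Cdc20 and Ccnb2, since CCAAT boxes and TTTGAA elements are known to take part in the cell cycle control of genes of this class. Each line gives the 250 bases before the RefSeq start (GRCm38.p6, minus strand, chr4:118437344-118437593 for Cdc20 and chr9:70421555-70421804 for Ccnb2), 5′ to 3′, with TTTGAA and CCAAT in capitals, searched on both strands.
Cdc20: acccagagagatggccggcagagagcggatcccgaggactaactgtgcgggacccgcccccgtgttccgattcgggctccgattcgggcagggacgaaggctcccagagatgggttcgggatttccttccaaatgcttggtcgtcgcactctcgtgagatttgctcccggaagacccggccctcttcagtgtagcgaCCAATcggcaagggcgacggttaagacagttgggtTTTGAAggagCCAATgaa
Ccnb2: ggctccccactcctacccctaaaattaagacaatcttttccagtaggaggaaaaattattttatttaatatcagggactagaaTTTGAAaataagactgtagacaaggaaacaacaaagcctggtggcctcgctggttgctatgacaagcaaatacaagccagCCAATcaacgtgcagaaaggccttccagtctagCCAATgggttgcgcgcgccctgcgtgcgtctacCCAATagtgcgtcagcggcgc
In Cdc20 the TTTGAA element lies between the CCAAT boxes, and in Ccnb2 it lies upstream of all of them, far from the start. Without regard to order or distance, both motifs were present in 4 of the 5 windows of the list members that rose (Top2a, Ccnb2, Cdc20 and Cdkn3), and in 5 of the 14 windows found for the 15 tested members. Over all 32851 windows, 16% held TTTGAA, 33.8% held CCAAT and 5.5% held both.

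Among genes that drive or report growth signalling, 0 of 11 tested genes of MAPK feedback passed. Ccnd1, cyclin D1, was at 2.4, 7.2 and 9.15 TPM in the tumours and at 0.58, 0.53 and 0.58 TPM in untreated LKO liver (log2 fold change 2.07 ± 0.80 SE, limma adjusted p = 0.335), without overlap. In WT libraries Ccnd1 ran from 3.15 to 38.4 TPM, a wide spread that entered the test. Myc was at 1.49, 5.35 and 13.6 TPM against 0.98, 0.3 and 0.7 TPM (log2 fold change 1.91 ± 0.64 SE, adjusted p = 0.211). Between XY libraries alone Myc passed (adjusted p = 0.0284) and Ccnd1 did not (adjusted p = 0.112). Cdkn1a, the p53 target p21, was at 2.05, 6.41 and 39.7 TPM against 1.1, 0.13 and 8.15 TPM, and 0 of 15 tested p53 targets passed.

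Fetal liver markers were uneven between tumours. Afp, alpha-fetoprotein, was at 0.46, 22.4 and 3.7 TPM in the tumours and 0.04 to 0.78 TPM in untreated LKO liver, and Gpc3, glypican 3, at 0.02, 5.79 and 0.68 TPM against 0 to 0.04 TPM. Neither reached 1 TPM in 3 of the 6 libraries, so neither was tested. Tumour 2 was the highest for both. H19, an imprinted fetal RNA, was highest in tumour 3, at 83.9 TPM, with 1.16 and 1.7 TPM in tumours 1 and 2 and 0.11 to 0.5 TPM in untreated liver (adjusted p = 0.55). Its neighbour Igf2 stayed at 1.2 to 1.53 TPM in the tumours, while nontumour library 1 held 76.4 TPM. Akr1c18, a steroid reductase, was at 14.3, 222 and 3.5 TPM in the tumours and 0.29 to 0.33 TPM in untreated liver (log2 fold change 4.24 ± 1.25 SE, adjusted p = 0.145).

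Stress and detoxification genes contributed several of the largest rises. Of 22 listed genes of the ATF4 programme, the transcriptional response to amino acid shortage and protein stress, 16 were tested. Of these 3 rose and 0 fell: Nupr1, Fgf21 and Mthfd2. A gene low in untreated liver could pass the filter only through the tumours, as Mthfd2 did. The count and the list median thus describe expressed members. Nupr1, a small stress-induced nuclear protein, was at 14.6, 10.9 and 117 TPM in the tumours and at 0.74, 0.66 and 1.11 TPM in untreated LKO liver (log2 fold change 3.93 ± 0.66 SE, limma adjusted p = 0.00751). Fgf21, a hormone that liver releases in fasting and stress, was at 13.1, 6.18 and 69.8 TPM against 0.29, 0.5 and 2.39 TPM (log2 fold change 3.36 ± 0.67 SE, adjusted p = 0.0182). Tumour 3 was the highest for both. The other 13 did not pass, among them Ddit3, at 4.02, 9.3 and 38.2 TPM against 11.2, 5.73 and 6.8 TPM, and Gdf15, at 7.26, 6.38 and 37.0 TPM against 27.5, 1.91 and 12.4 TPM. Both genes overlapped between the groups. The list median lay 0.52 above that of all genes. The call of Fgf21 was lost without tumour 3, untreated 1 or untreated 2 (adjusted p up to 0.181), while that of Nupr1 held in all 6 omissions. Both calls were lost in the fits of the 6 compared or the 9 LKO libraries alone (adjusted p up to 0.0892 for Nupr1).

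The windows before the starts of Nupr1 and Fgf21 are shown because each holds the composite element TGATGNAA that ATF4 and its partner C/EBP are known to bind, here on the opposite strand. Each line gives the 250 bases before the RefSeq start (GRCm38.p6, minus strand, chr7:126625471-126625720 for Nupr1 and chr7:45615491-45615740 for Fgf21), 5′ to 3′, with the match in capitals.
Nupr1: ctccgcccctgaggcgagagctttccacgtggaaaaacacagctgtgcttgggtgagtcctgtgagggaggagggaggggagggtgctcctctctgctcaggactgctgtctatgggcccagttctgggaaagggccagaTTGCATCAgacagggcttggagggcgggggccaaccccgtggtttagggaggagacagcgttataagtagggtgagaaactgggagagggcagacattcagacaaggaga
Fgf21: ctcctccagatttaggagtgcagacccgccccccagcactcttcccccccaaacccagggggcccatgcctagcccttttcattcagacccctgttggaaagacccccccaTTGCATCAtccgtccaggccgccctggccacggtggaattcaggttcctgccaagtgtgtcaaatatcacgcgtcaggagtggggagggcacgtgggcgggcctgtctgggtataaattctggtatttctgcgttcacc
The element was in 2 of the 3 windows of the members that rose and in 5 of the 16 tested members, against 3.5% of all 32851 windows, searched on both strands.

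Of 23 tested targets of NRF2, the sensor of oxidants and electrophiles, Gstm3 alone passed, and 8 had an unadjusted p under 0.05, all in the higher direction, where the background of such genes was 8.17%. Gstm3, a glutathione transferase, was at 165, 399 and 1067 TPM in the tumours and at 30.3, 9.4 and 46.7 TPM in untreated LKO liver (log2 fold change 4.05 ± 0.73 SE, limma adjusted p = 0.0105). Nqo1, a quinone reductase and classical NRF2 target, was at 6.31, 27.1 and 40.6 TPM against 2.38, 0.97 and 3.59 TPM, just outside the threshold (log2 fold change 2.71 ± 0.67 SE, adjusted p = 0.0641). Gsta1, another transferase, was at 9.9, 694 and 449 TPM against 3.55, 3.65 and 10.6 TPM, with tumour 1 within the untreated range (adjusted p = 0.118). Between XY libraries alone 5 of 23 rose, against 4.04% of all tested genes: Nqo1, Srxn1, Gsta1, Gstm3 and G6pdx. Among 21 tested glutathione transferases Mgst3 rose beside Gstm3, at 114, 51.5 and 398 TPM against 17.2, 6.21 and 24.9 TPM (log2 fold change 3.15 ± 0.68 SE, adjusted p = 0.0301). Members of the mu and alpha classes are close in sequence, so single values are uncertain where reads could be divided. The call of Gstm3 was lost without tumour 3 or untreated 2 (adjusted p up to 0.0896), and that of Mgst3 without tumour 3 or any untreated library (adjusted p up to 0.238).

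Among macrophage genes 1 passed. Of 24 listed genes 16 were tested, and Spi1, the transcription factor PU.1 of myeloid cells, passed. It was at 5.91, 11.7 and 24.8 TPM in the tumours and at 2.03, 1.4 and 0.94 TPM in untreated LKO liver (log2 fold change 2.44 ± 0.50 SE, limma adjusted p = 0.023). Another 10 had an unadjusted limma p under 0.05 in the higher direction, where the background of such genes was 8.17%. The list median lay 1.77 above that of all genes. As with cell division genes, members low in untreated liver could pass the filter only through the tumours. All listed macrophage genes summed to 208, 321 and 1580 TPM in the tumours and to 149, 80.9 and 88.9 TPM in untreated liver. Lyz2, lysozyme, was at 17.7, 69.9 and 259 TPM against 9.33, 7.35 and 5.96 TPM (adjusted p = 0.118), and C1qb, a complement subunit made by macrophages, at 32.3, 58.1 and 288 TPM against 14.1, 8.3 and 11.4 TPM (adjusted p = 0.0641). The Kupffer cell markers Clec4f, at 41.9, 10.3 and 41.3 TPM against 36.8, 17.2 and 20.5 TPM, and Vsig4, at 11.3, 3.47 and 9.32 TPM against 4.55, 2.46 and 4.59 TPM, did not pass, and both overlapped. In bulk tissue, more or fewer cells of a type and more or less RNA per cell cannot be told apart.

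Further myeloid genes, chosen after their values were seen, were among the 64 that rose: Tyrobp, Fcer1g, Aif1, Lst1, Cfp, Wfdc17, Siglece, Clec4b1, Blnk and Lgals3. Tyrobp, a signalling adaptor of myeloid receptors, was at 37.9, 66.2 and 216 TPM in the tumours and at 15.9, 11 and 9.81 TPM in untreated LKO liver (log2 fold change 2.67 ± 0.55 SE, limma adjusted p = 0.0218). Lgals3, galectin 3, was at 13.7, 37.4 and 280 TPM against 6.21, 4.34 and 2.37 TPM (log2 fold change 3.42 ± 0.74 SE, adjusted p = 0.0301). Nontumour DEN liver was in the same range for Tyrobp, at 27.7, 58.2 and 85.4 TPM. Spi1 in nontumour DEN liver was at 3.28, 8.95 and 15.07 TPM, also above every untreated library. Its tumour minus nontumour difference did not pass (log2 difference 0.58 ± 0.50 SE, limma adjusted p = 0.925). For Tyrobp and Spi1 the rise over untreated liver was therefore not limited to the tumours. The same differences for Aif1 and Cfp are given with the nontumour comparison below. Trem2, a receptor of lipid-laden macrophages, was removed by the filter and reached 14.9 TPM in tumour 3 against 0.76 to 0.84 TPM in the other tumours. The calls of Spi1 and Lgals3 were lost without tumour 2, tumour 3 or any untreated library (adjusted p up to 0.185 and 0.282). Tyrobp lost its call in 8 of 20 alternatives, the same omissions among them. Between XY libraries alone 9 of the 16 macrophage genes rose, against 4.04% of all tested genes.

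Tumour 3 stood apart in its MHC class II and T cell transcripts. The 7 tested MHC class II genes, which present antigen, lay above every untreated library in each tumour, yet 0 passed. Ciita among them reached 1 TPM only in the tumours, so its order followed from the filter. All listed MHC class II genes summed to 136, 266 and 5885 TPM in the tumours and to 81.5, 39.8 and 55.9 TPM in untreated LKO liver. Cd74, the class II invariant chain, was at 52.2, 127 and 3522 TPM against 32.2, 15.1 and 17.5 TPM (log2 fold change 3.75 ± 1.14 SE, limma adjusted p = 0.16). B and plasma cell genes other than Cd74 did not set tumour 3 apart: Igkc, an antibody light chain, was at 43.5, 105 and 78.2 TPM in the tumours. T and NK cell genes summed to 188 TPM in tumour 3 and to 17.5 and 26.5 TPM in the others, with 9.58 to 13.3 TPM in untreated liver. Stellate cell and matrix genes summed to 31.8, 133 and 226 TPM in the tumours against 33.8, 81.6 and 43.8 TPM. Col1a1 was at 0.26, 2.13 and 3.26 TPM in the tumours and was not tested. The part of these cell types in the calls that tumour 3 carried was not tested.

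**Figure D4:**
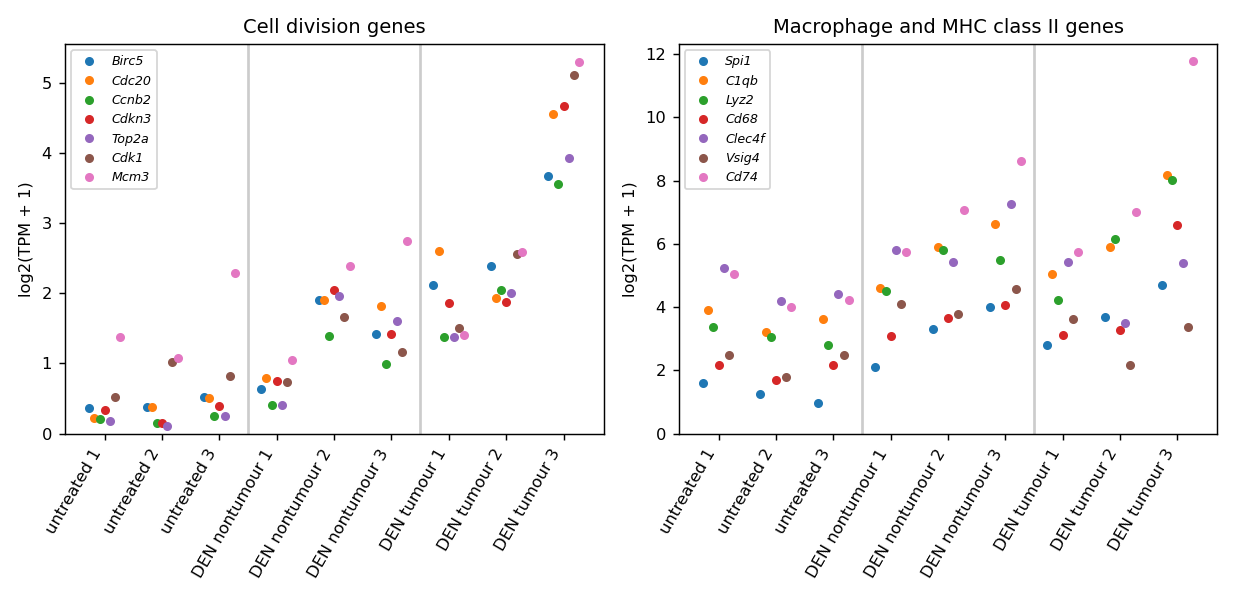
log2(TPM + 1) of 7 cell division genes (left) and 7 macrophage and MHC class II genes (right) in each LKO library, 1 point per gene and library. Tumour 3 is the highest library for all 7 division genes, and Clec4f and Vsig4 in the tumours stay close to the untreated libraries.

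Among lists of hepatocyte identity and zonation, transcription factors and periportal genes held 0 calls, near the background of 1.01% of all tested genes. Pericentral genes held 2. Of 19 tested hepatocyte transcription factors 0 passed, and Hnf4a was at 45.3, 101 and 80.7 TPM in the tumours against 34.6, 37.9 and 73.5 TPM (adjusted p = 0.796). Pericentral and beta-catenin genes were split between tumours. Glul, glutamine synthetase, the marker of the central hepatocytes and of beta-catenin activity, was at 360, 6.82 and 110 TPM in the tumours and at 263, 120 and 189 TPM in untreated LKO liver (limma adjusted p = 0.71). Oat, another gene of central hepatocytes, followed the same order, at 299, 3.72 and 93.6 TPM against 282, 130 and 175 TPM. Tumour 2 was thus the low one and tumour 1 the high one for both. Of the 18 tested genes of this list 2 rose, Gstm3 and Slc1a4, an amino acid transporter, against 0.581% of all tested genes. Slc1a4 rose from 0.3, 0.2 and 0.81 TPM to 1.45, 5.13 and 12.99 TPM (log2 fold change 2.07 ± 0.48 SE, adjusted p = 0.0427). The call of Slc1a4 was lost in 12 of 20 alternatives, the omission of tumour 2, tumour 3 or any untreated library among them.

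Periportal genes leaned lower without passing: 0 of 17 were called, 6 of 17 had a positive change, and the median lay 1.22 below that of all genes. Hal, histidine ammonia lyase, which starts the pathway that Ftcd ends, was at 6.84, 38.1 and 17.9 TPM in the tumours and at 64.5, 46.1 and 119 TPM in untreated LKO liver, without overlap (log2 fold change -2.001 ± 0.56 SE, limma adjusted p = 0.118). Sds, serine dehydratase, was at 26.5, 95.8 and 43.7 TPM against 229, 103 and 170 TPM (adjusted p = 0.187). Among 25 tested genes of folate metabolism Mthfd2, a mitochondrial folate enzyme that is scarce in adult tissue, alone passed. It was at 3.47, 1.95 and 6.1 TPM against 0.27, 0.98 and 0.14 TPM (log2 fold change 1.68 ± 0.37 SE, adjusted p = 0.0358), and its call was lost without tumour 3 or any untreated library (adjusted p up to 0.282). Sardh, which demethylates sarcosine and feeds the folate pool, was at 225, 189 and 211 TPM against 497, 336 and 576 TPM, without overlap and without passing (adjusted p = 0.288).

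Some of the genes that fell belong neither to the Mup cluster nor to the male-biased list. Alas2, the haem synthesis enzyme of red cell precursors, was at 16.8, 18.6 and 19.4 TPM in the tumours and at 164, 94.9 and 124 TPM in untreated LKO liver (log2 fold change -2.71 ± 0.59 SE, limma adjusted p = 0.0325). It was the 1 of 5 tested red cell genes that passed, and all listed red cell genes summed to 618 to 1176 TPM in the tumours and 781 to 1890 TPM in untreated liver. Chosen after their values were seen, Sult2a8, a sulfotransferase, was at 41.5, 1.43 and 0.87 TPM against 108, 85.8 and 156 TPM (log2 fold change -4.30 ± 0.95 SE, adjusted p = 0.0346), and Ces2a, a carboxylesterase, at 50.8, 21.3 and 33.9 TPM against 247, 156 and 115 TPM (log2 fold change -2.27 ± 0.43 SE, adjusted p = 0.0145). Capn8, a calpain, was at 0, 0.65 and 0 TPM in the tumours against 3.43, 7.24 and 2.88 TPM (log2 fold change -2.14 ± 0.29 SE, adjusted p = 0.00127). The call of Alas2 was lost without tumour 2, tumour 3 or any untreated library (adjusted p up to 0.238). Sult2a8 lost its call in 8 of 20 alternatives, the same omissions among them, Ces2a in 7 and Capn8 in 2.

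The remaining lists gave at most 1 call each. With 1.01% of all tested genes called, 0 or 1 call is near the background for lists of this size. Such counts say little about a pathway or cell type. Cyp2a4 was the 1 of 34 tested cytochrome P450 genes that passed, Fgf21 the 1 of 28 genes of fatty acid oxidation and ketogenesis, and Slco1a1 the 1 of 21 genes of bile acid synthesis and transport. Among metabolic lists, 0 genes passed of 5 for histidine breakdown, 16 for the methionine and methyl cycle, 13 for serine and glycine, 15 for tyrosine and tryptophan breakdown, 25 for cholesterol synthesis, 16 for fatty acid synthesis, 21 for glycolysis, 16 for gluconeogenesis, 15 for retinoids, 15 for apolipoproteins and 18 for iron and metallothioneins. The same count of 0 held for 20 genes of folding in the endoplasmic reticulum, 20 heat shock chaperones, 19 acute phase genes, 27 of complement and coagulation, 14 clock genes, 12 mitochondrially encoded and 3 Y-linked genes. Among cell markers and immune genes, 0 passed of 4 for T and NK cells, 9 for B and plasma cells, 2 for neutrophils, 13 for MHC class I, 12 for stellate cells and matrix, 14 for liver and 5 for other endothelial cells, 4 for cholangiocytes, 4 for fat cells and 1 for pancreas. Interferon genes also gave 0 of 18, although all 18 changes were positive, with a median log2 fold change of 1.12.

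**Figure D5:**
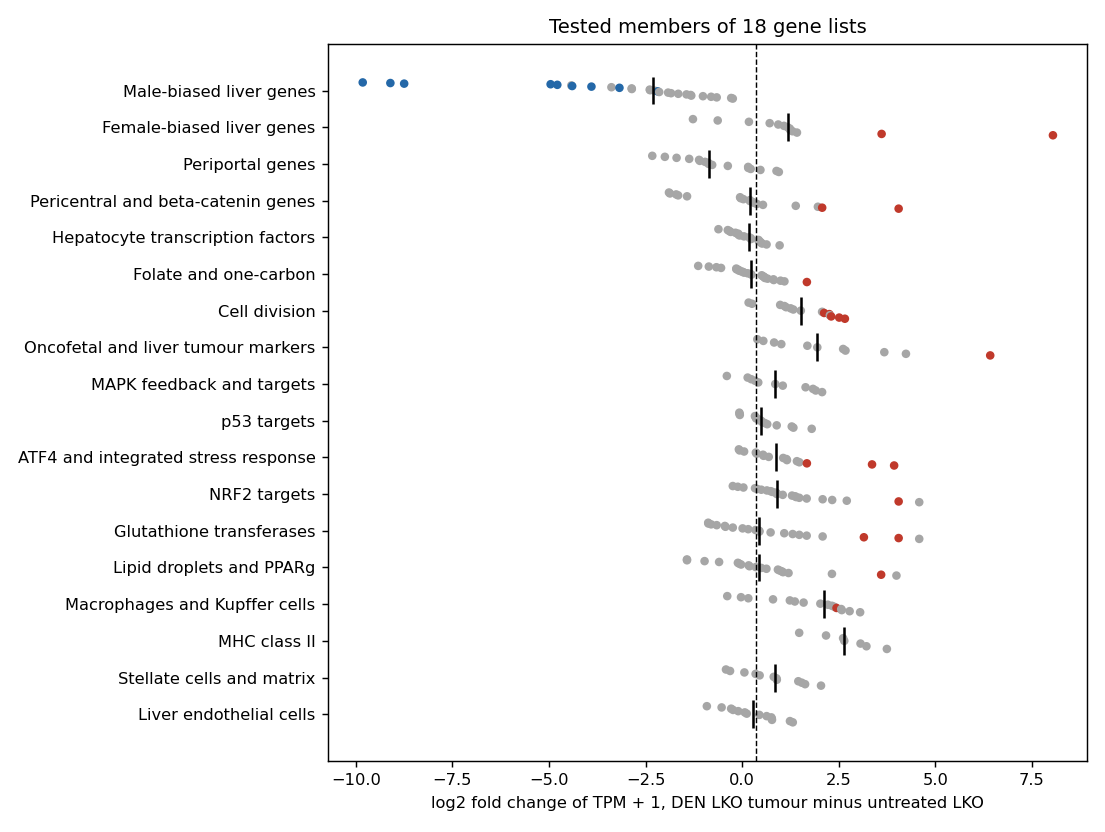
Each point is a tested member of 1 of 18 gene lists, at its log2 fold change of TPM + 1 (tumour minus untreated LKO), with genes that rose in red, genes that fell in blue and the others in grey. Black bars are list medians, -2.32 for male-biased genes (Mup members included) and 2.12 for macrophages, and the dashed line is the median of all tested genes at 0.35.

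A tumour differs from untreated liver both in DEN exposure and in being a tumour, which cannot be told apart in this contrast. Nontumour DEN liver of the same genotype was therefore set against the tumours. Nontumour library 1 was XX and libraries 2 and 3 were XY, the same as the tumours of those numbers, but no label says that equal numbers are the same mouse. Fitted in the same model, tumour minus nontumour called 0 of 11019 genes (0%), and 243 (2.21%) had an unadjusted p under 0.05. Both contrasts use the same tumour libraries, so they are not independent. The log2 difference of tumour minus nontumour was 0.45 ± 1.02 SE for Cyp2a4 and -0.43 ± 0.81 SE for Cyp4a12a, and neither passed. A test that fails does not show that the levels are equal. The same differences were 3.44 ± 1.15 SE for Ly6d, 2.34 ± 0.66 SE for Nupr1, 1.404 ± 0.42 SE for Birc5 and 1.52 ± 0.50 SE for Cdc20, and none of these 4 passed (adjusted p = 0.925 for each). Smaller values were found for Cfp (-0.24 ± 0.45 SE), Aif1 (0.14 ± 0.51 SE), Elovl3 (0.097 ± 0.72 SE) and Capn8 (-0.087 ± 0.29 SE). The nontumour mean lay above the untreated mean in all 64 genes that rose and below it in all 47 that fell. Of the 64, 62 had a positive tumour minus nontumour difference. The calls were picked for their distance from the same untreated libraries, which favours such an order.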

How the data were processed

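Values were taken from 1 gene table of TPM, deposited by the authors, with a column per library. The submitters' processing notes name fastp, HISAT and RSEM with mm10, without versions, roles or settings. TRIzol extraction and TruSeq libraries are stated per the labels. TPM keeps no depth, so no interval or detection limit was computed. Libraries summed to 999999 to 1000001 TPM, Pearson correlations of log2(TPM + 1) were 0.753 to 0.931 within and 0.749 to 0.921 between the compared groups, and 0 pairs held identical values.

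Genes that reached 1 TPM in 3 or more of the 6 compared libraries were tested on log2(TPM + 1), which understates the change of low genes. Group means of all 18 libraries (5 groups) were fitted together with limma 3.58.1 under R 4.3.3 (13 residual degrees of freedom, intensity trend in the variance), and 2-sided p-values were adjusted by Benjamini-Hochberg with 0.05 as the threshold. The fit was tested on simulated data. Library shares were compared with exact permutation tests in scipy 1.17.1. Of the tested genes, 10493 had a symbol, 526 were assembled loci without one, and 10485 (95.2%) were in GENCODE M21, which gave mm10 coordinates. Promoter windows are from RefSeq (GRCm38.p6).

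Named genes were the 12 largest rises and 12 largest falls among genes that passed without overlap, carried a regular symbol and averaged at least 5 TPM in their higher group, 20 listed genes whatever their result, and up to 4 tested members per list with the smallest unadjusted p. Genes named beyond this rule were chosen after their values were seen. The comparison, its members and the 53 gene lists (1047 of 1052 entries matched) were chosen with earlier results of these data known.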

Additional observations from a re-analysis of the deposited data

How the results depend on the processing

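Calls of tumour against untreated LKO (111; 64 higher, 47 lower) were 35 (6 and 29) in the 6 compared libraries alone, 8 (2 and 6) in the 9 LKO libraries alone, 572 (505 higher) when sex was a term, 218 (139 and 79) with a covariate for mitochondrial share, 277 (167 and 110) under median-ratio scaling and 226 (115 and 111) under quantile normalization. Rescaling without mitochondrially encoded genes gave 99 higher. Leaving out each library in turn gave 21 to 512 calls, 7 to 445 higher and 13 to 67 lower. The cause was not tested. Pseudocount 0.1, no filter, a filter over 18 libraries, robust estimation, omission of the 3 low-Ftcd libraries labelled WT, and rescaling without Mup and mitochondrially encoded genes (chosen after seeing the data; 21 of the 111 not tested) gave 96 to 107. Median-ratio and quantile scaling moved the median of all genes by -0.30 and -0.35. Tumour against nontumour called 0 genes except 4 (3 higher, 1 lower) without a filter, 1 (lower) under either scaling, and 0 to 5 when a library was left out (0 to 5 higher, 0 to 2 lower). Changes that did not pass turned sign for Glul without tumour 2 (0.133; down to -2.63 without others), Cidea without untreated 3 (0.235; down to -2.57), Cidec without tumour 3 (-0.0475; up to 2.15) and Gdf15 without tumour 3 or untreated 2 (-0.407 and -0.561; up to 1.09). Correlations of library deviations did not show a pairing by replicate number (same-number correlations 0.169, -0.0391 and 0.465). Tumour 1 correlated best with untreated 2 (0.511). Deviations from a mean of 3 libraries depend on one another, so these values cannot exclude a pairing. A replicate block in the 6 libraries gave 118 calls, 74 among the 111, against 35 without it. For tumour against nontumour (0.344, 0.316 and -0.0519, with the same sex at each number) it gave 0 calls, as without it. With TPM alone, the depth of each library is unknown.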

Other observations

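Y-linked transcripts differed between the XY libraries of the comparison. Their sum was 13.3 TPM in tumour 2 and 4.95 TPM in tumour 3, against 16.4 to 17.8 TPM in the 3 untreated LKO libraries and 15.04 and 22.3 TPM in the XY nontumour libraries.

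Some secreted proteins of hepatocytes, chosen after their values were seen, were higher in the XY tumours than in the XX tumour. Trf, transferrin, was at 39710 and 36460 TPM in tumours 2 and 3 and at 3608 TPM in tumour 1, against 6791, 3338 and 9661 TPM in untreated LKO liver (limma adjusted p = 0.594; it passed between XY libraries alone). Apoa4, an apolipoprotein of triglyceride-rich particles, was at 119, 3104 and 4597 TPM in the tumours and at 31.7, 66.3 and 190.6 TPM in untreated liver (log2 fold change 3.995 ± 1.09 SE, adjusted p = 0.106), with tumour 1 within the untreated range. Lcn2, a lipocalin of inflammation, was at 30.7, 709 and 597 TPM against 30.6, 140 and 12.2 TPM (adjusted p = 0.699).

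Of 22 listed imprinted genes 10 were tested and 0 passed, and all 10 changes were positive. H19 and Igf2 reached 1 TPM only in the tumours, so their sign followed from the filter. The median log2 fold change of all tested genes was itself 0.35. Airn, the antisense RNA at the Igf2r locus, was at 7.19, 1.56 and 6.28 TPM in the tumours and at 0.7, 1.29 and 0.52 TPM in untreated LKO liver, and Igf2r at 10.2, 3.01 and 9.95 TPM against 1.97, 1.99 and 2.17 TPM; both were without overlap and neither passed (adjusted p = 0.106 and 0.199). The authors' counting is not stated to use strand, so reads of the overlapping pair cannot be told apart. Meg3 was at 43.9 TPM in tumour 1 and at 0.3 and 0.19 TPM in tumours 2 and 3.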
